A study of Homo sapiens with 3 samples.

Results

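The IRF2BP genes, IRF2BP1, IRF2BP2 and IRF2BPL, are the 3 members of a small family of transcription corepressors, out of 20056 protein-coding genes in the RefSeq gene table. They were followed here through the poly(A) ends of their RNA, by summing the counts in an hg19 window around each gene on the gene's strand. The windows were chr19:46386300-46389800 for IRF2BP1, chr1:234739500-234745500 for IRF2BP2 and chr14:77490500-77495300 for IRF2BPL, each on the minus strand. The family was chosen by a measured value of these data. The megabase of chromosome 1 that holds IRF2BP2 stood out for its enrichment in RNA captured after labelling. The values of IRF2BP2 in captured RNA against the input, at either labelling time, are therefore a description of what chose it. Nothing is read from their size. Within the windows, 14 sites of 3′ ends had at least 20 counts over the libraries, out of 58672 such nuclear sites. IRF2BP2 had 11 of them, IRF2BP1 had 2 and IRF2BPL had 1.

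The cells were HEK293T, an established human embryonic kidney line. The assay, 2P-seq, reads the place where the body of an mRNA meets its tail, so that 1 molecule gives 1 end whatever its length. The 3 libraries were RNA captured after 30 min in 4-thiouridine (4sU), RNA captured after 60 min in 4sU, and the input of the 30 min labelling, which stands for steady-state RNA and whose treatment is labelled as none. 4sU is a uridine analogue that cells build into RNA while it is in the medium, and its thiol group lets recently made RNA be pulled out. The libraries are called the 30 min library, the 60 min library and the input below. Each group had 1 library, so there is no replicate check on any difference, and all intervals are 95% intervals that cover counting error only. The 30 min library had 9652023 nuclear counts, the 60 min library 6151986 and the input 32768468, and levels are nuclear counts scaled to a common total (CPM). A count of 0 allows up to 3 counts, or 0.311, 0.488 and 0.0916 CPM in that order. Per the labels' protocols the captured RNA skipped the first poly(A) selection, and the part of that step in the differences was not tested.

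Proteins of this family carry a zinc finger near one end and a RING-type domain near the other, and act as corepressors that other factors bring to genes. IRF2BP1 and IRF2BP2 were identified as partners of interferon regulatory factor 2, a repressor of interferon-responsive genes. IRF2BP2 is also known as a repressor of the calcium-responsive factor NFAT1 and as a partner of VGLL4, a cofactor of the TEAD factors. IRF2BPL, also named EAP1, is an intronless gene known for its role in the nervous system, where its damaging variants cause a neurodevelopmental disorder. Their known partners were not analysed here, since no annotation in the numbering of the tables was used.

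The members were matched to RefSeq by symbol, and all 3 were found there as protein-coding genes, with lengths of 5910 nt for IRF2BP2, 4166 nt for IRF2BPL and 2534 nt for IRF2BP1. Each is shorter than its window, of 6001, 4801 and 3501 nt. The strand in RefSeq was minus for each, and so was the strand of nearly all counts. The plus strand of the windows held 0 counts in the 30 min library, 1 each for IRF2BP2 and IRF2BPL in the 60 min library, and 1 for IRF2BP1 in the input. No exon, intron or untranslated region was assigned to any end.

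The sequences just before the RefSeq start sites are given as a description. Any link to the enrichment was not tested. They are the 150 bases upstream of the start, 5′ to 3′, from RefSeq on GRCh38.p14, which is not the numbering of the 3′ ends. They lie at chr1:234610179-234610328 for IRF2BP2, which has 2 start sites in the table and of which the first listed is shown, chr14:77028709-77028858 for IRF2BPL and chr19:45886142-45886291 for IRF2BP1, all on the minus strand. Capitals mark matches on either strand to the motifs searched.

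IRF2BP2: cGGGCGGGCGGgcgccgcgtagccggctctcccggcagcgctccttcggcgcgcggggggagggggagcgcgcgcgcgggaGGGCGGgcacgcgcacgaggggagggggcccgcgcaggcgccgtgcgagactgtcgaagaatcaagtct
IRF2BPL: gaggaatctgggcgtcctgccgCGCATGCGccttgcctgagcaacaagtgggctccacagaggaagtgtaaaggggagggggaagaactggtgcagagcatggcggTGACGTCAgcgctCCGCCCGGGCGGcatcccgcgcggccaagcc
IRF2BP1: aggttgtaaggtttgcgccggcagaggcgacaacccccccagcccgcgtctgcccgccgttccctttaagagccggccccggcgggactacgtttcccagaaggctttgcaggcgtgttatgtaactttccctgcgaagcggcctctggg

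The motifs were the GC box (GGGCGG), the TATA box (TATAAA), the CCAAT box (CCAAT), the core of the cAMP response element (TGACGTC), an NRF1 core (GCATGCG), an ETS core (CCGGAAG) and the E-box (CACGTG), chosen after the sequences had been seen. IRF2BP2 held 3 matches to the GC box, of which 2 overlap, and IRF2BPL held 2; 36.8% of the 35116 promoters in the table held at least 1 in the same stretch. IRF2BPL also held the cAMP response element core, from 44 to 37 bases upstream with its overlapping match on the other strand, which 2.50% of promoters had. The NRF1 core lay in IRF2BPL from 128 to 121 bases upstream, again with a match on each strand, and was found in 2.65% of promoters. IRF2BP1 matched none of the motifs. The bases G and C made up 80.0% of the IRF2BP2 stretch, 67.3% of that of IRF2BPL and 64.0% of that of IRF2BP1, against a median of 60.0% over all promoters. A match is a description of letters, not a site of binding.

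All 3 genes were higher in both captured libraries than in the input. IRF2BP2 had 9503 counts in the 30 min library, 3163 in the 60 min library and 2660 in the input, or 985, 514 and 81.2 CPM. The captured libraries stood far above the input although the input was the deepest library. Relative to input, IRF2BP2 was 12.1-fold higher at 30 min (11.6 to 12.7) and 6.33-fold higher at 60 min (6.01 to 6.67). In terms of the whole library, 0.0985% of nuclear ends at 30 min were those of IRF2BP2, against 0.00812% in the input.

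IRF2BPL had 1809, 672 and 807 counts in the same order, or 187, 109 and 24.6 CPM. Its CPM intervals did not overlap between any of the libraries. Relative to input it was 7.61-fold higher at 30 min (7.00 to 8.28) and 4.44-fold higher at 60 min (3.998 to 4.92). IRF2BP1 was the least abundant member, with 139, 45 and 56 counts, or 14.4, 7.31 and 1.71 CPM. It was 8.43-fold higher than input at 30 min (6.14 to 11.7) and 4.28-fold higher at 60 min (2.83 to 6.45), with wider intervals because of its few counts.

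**Figure D1:**
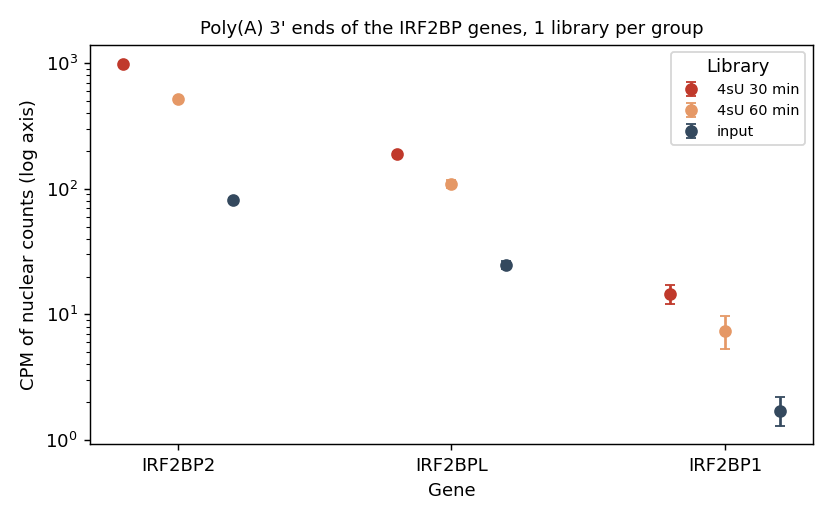
Level of each IRF2BP gene in CPM of nuclear counts (log axis) in the 3 libraries, with 1 point per library and bars for the exact 95% Poisson interval, which hides behind the point for IRF2BP2. For each gene the 30 min library is highest and the input lowest, from 985 CPM for IRF2BP2 at 30 min to 1.71 CPM for IRF2BP1 in the input.

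The order of the members by level was IRF2BP2, IRF2BPL, IRF2BP1 in each library, with no overlap of their counting intervals. By their ratio to input, given as a description since enrichment in captured RNA chose IRF2BP2, the order was less distinct. The 30 min ratio of IRF2BP2 was 1.59 times that of IRF2BPL (1.45 to 1.75), and its 60 min ratio was 1.43 times (1.27 to 1.60). It was 1.44 times that of IRF2BP1 at 30 min (1.05 to 1.97) and 1.48 times at 60 min, where the interval included 1 (0.996 to 2.20). IRF2BP1 and IRF2BPL could not be told apart at this depth, with ratios of their ratios of 1.11 at 30 min (0.803 to 1.53) and 0.965 at 60 min (0.643 to 1.45). The ratios at 30 and 60 min share the input library, so they are not separate observations of the enrichment.

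For a background over other transcripts, sites of the same strand no more than 2000 nt apart were joined into groups, which stand in for genes. A group was called higher or lower at a ratio of 2-fold or more with an interval that left out 1. The average CPM of a group in the 3 libraries had to be 10 or more, which held for 9914 groups. Of these, 35.7% were called higher and 15.3% lower than input at 30 min, and 27.8% and 19.5% at 60 min. A call alone is thus common. IRF2BPL ranked 882 from the highest at 30 min and 1106 at 60 min. IRF2BP2 was at 513 and 767, places that follow from the choice of its megabase for 4sU enrichment and are no result. The median group had a ratio of 1.33 at 30 min and 1.07 at 60 min.

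The ends of IRF2BP1 had a mean of 7.27 CPM and were below that filter. In the 26405 groups with a mean CPM of at least 1, 52.6% were called higher at 30 min and 43.0% at 60 min, with median ratios of 2.23 and 1.66. There IRF2BP1 ranked 4749 and 7459, and IRF2BPL 5437 and 7000. Groups, their ranks and the likeness between groups given below use only sites of at least 20 counts. On these sites the ratios were 8.75 and 3.99 for IRF2BP1 and 7.57 and 4.39 for IRF2BPL, which differ slightly from those of the whole windows. Groups of low counts pass a filter on the mean more easily when they are high in a captured library, so the ranks depend on the filter.

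**Figure D2:**
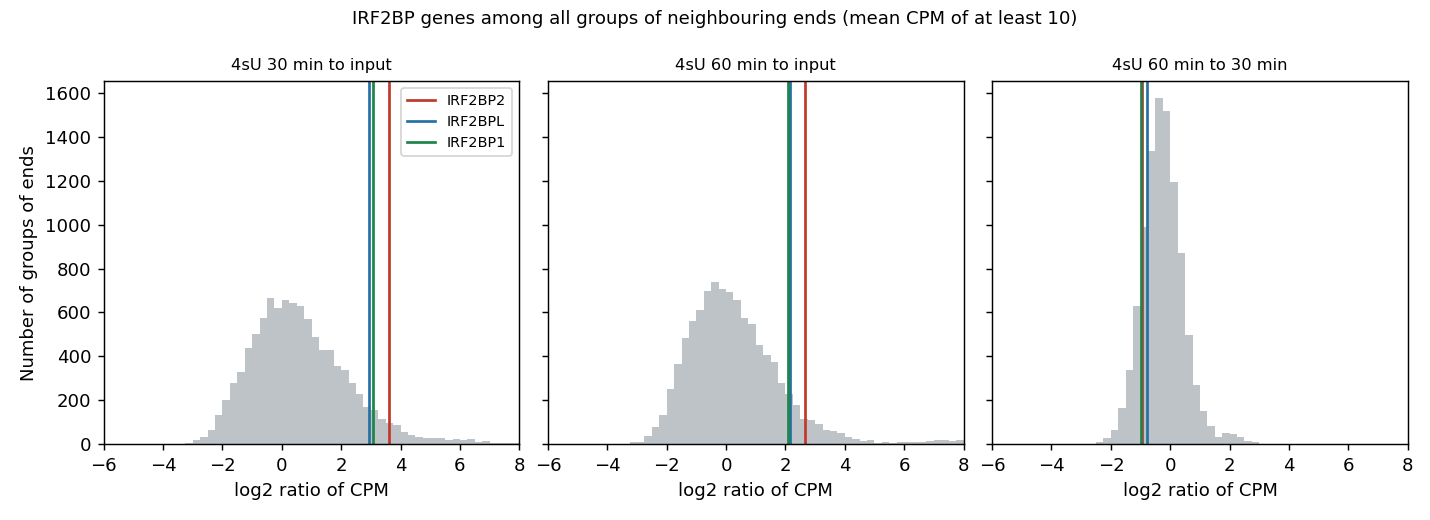
Number of groups of neighbouring ends (mean CPM of at least 10) by their log2 ratio of CPM in the 3 comparisons, in bins of 0.25, with the ratio of each IRF2BP gene as a line. The lines lie toward the high end against input (3.60, 2.93 and 3.07 at 30 min for IRF2BP2, IRF2BPL and IRF2BP1) and on the low side from 30 to 60 min; IRF2BP1 is drawn although its own group is below the filter.

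Between the labelling times the levels of the members were lower at 60 than at 30 min. IRF2BP2 was 1.91-fold lower (1.84 to 1.99), IRF2BPL 1.72-fold lower (1.57 to 1.88) and IRF2BP1 1.97-fold lower (1.40 to 2.82). None of the 3 reached the 2-fold limit for a call on its whole window. The groups use only sites of at least 20 counts, and on these IRF2BP1 passed the limit, at 0.457 (0.311 to 0.657). IRF2BP2 and IRF2BPL did not, at 0.521 and 0.581. Of groups with a mean CPM of at least 10, 12.5% were called lower and 4.30% higher. The median ratio of all sites was 0.831, and relative to it the ratios were 0.628 for IRF2BP2, 0.701 for IRF2BPL and 0.611 for IRF2BP1. IRF2BPL ranked 7860 of 9914 groups from the highest and IRF2BP2 8521. The denominator is the captured 30 min library, and enrichment in captured RNA chose IRF2BP2. With median-of-ratios scaling, which moves the median of all sites from -0.27 to 0.033 on the log2 scale, the members were 1.56-, 1.39- and 1.60-fold lower in the order IRF2BP2, IRF2BPL and IRF2BP1. The direction was the same with each scaling tried.

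IRF2BP2 had the most sites of at least 20 counts in the family. It also had the most counts, so a site with a small share reached that limit more easily than in the other genes. By share, its largest site held 52.6% of its counts in the input, against 87.5% for IRF2BP1 and 99.9% for IRF2BPL. Positions within 24 nt of a local maximum were merged into a site, called an end below. The main end, with the most counts, was at chr1:234742495 on the minus strand. It had 4212 counts at 30 min, 1510 at 60 min and 1398 in the input, or 436, 245 and 42.7 CPM. The next largest, at chr1:234741511, lay 984 nt downstream and had 3366, 944 and 675 counts, or 349, 153 and 20.6 CPM. These 2 ends together held most of the IRF2BP2 counts in each library.

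Another 3 ends had a mean CPM of at least 10. The end at chr1:234742664, 169 nt upstream of the main end, had 699, 183 and 125 counts. The outermost downstream end, at chr1:234740017, lay 2478 nt beyond the main end and had 675, 257 and 345 counts. Between them, at chr1:234740969 and 1526 nt downstream of the main end, was an end with 228, 142 and 45 counts. Among these 3 the outermost end had the most counts in the input.

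**Figure D3:**
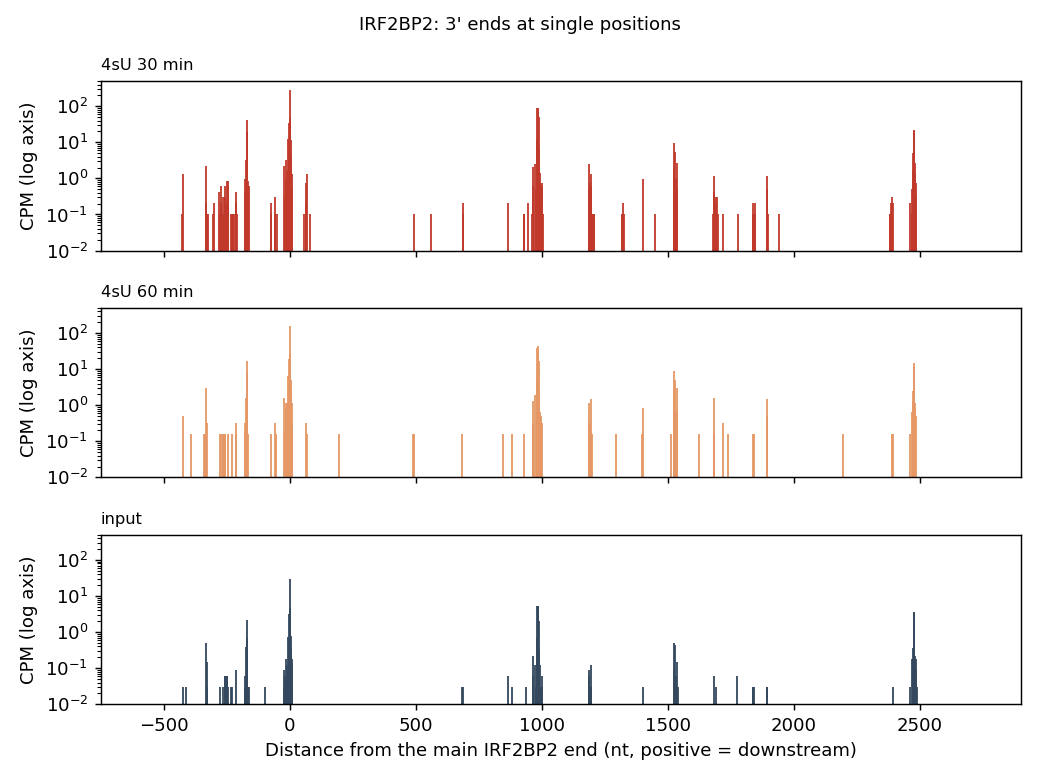
CPM of nuclear counts (log axis) at single positions of the IRF2BP2 window on the minus strand, by distance in nt from the main end (positive is downstream), in 1 panel per library; 6 counts of the 3 libraries lie outside the range shown. The 5 tallest clusters, at -169, 0, 984, 1526 and 2478 nt, recur in each library, and counts fall on 208 positions at 30 min, 142 at 60 min and 117 in the input.

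The ends of IRF2BP2 differed in how far they exceeded the input. Of the 5 with a mean CPM of at least 10, 5 were called higher at 30 min and 5 at 60 min, where 35.3% and 27.3% of all 10843 such sites were higher and 17.1% and 21.8% lower. Enrichment in captured RNA chose the gene, so both counts are given as description. The ends 169 nt upstream and 1526 nt downstream of the main end had 3.81 and 1.37 CPM in the input. They passed the filter through the captured libraries and had to be high there. Their places in the order at 30 and 60 min are therefore description too. At 30 min the end 169 nt upstream of the main end was 18.98-fold higher than in input (15.7 to 23.2). The end 1526 nt downstream was 17.2-fold higher (12.4 to 24.2) and the end 984 nt downstream 16.9-fold higher (15.6 to 18.4). These 3 lay above the main end, at 10.2-fold (9.63 to 10.9), and the outermost end, at 6.64-fold (5.83 to 7.58), with no overlap of intervals between the main end, the outermost end and the rest.

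At 60 min the order was partly different. The end 1526 nt downstream was 16.8-fold higher than in input (11.9 to 24.1), above all others of the 5. The ends 169 nt upstream and 984 nt downstream were 7.80-fold (6.18 to 9.87) and 7.45-fold (6.74 to 8.23) higher. The main end was 5.75-fold higher (5.35 to 6.19) and the outermost end again the lowest of the 5, at 3.97-fold (3.36 to 4.68).

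From 30 to 60 min, 2 of these 5 ends were called lower, where 14.0% of all sites were called lower and 4.58% higher. This count is description, since the denominator is the captured 30 min library and enrichment in captured RNA chose the gene. The end 169 nt upstream was 2.43-fold lower (2.07 to 2.88) and the end 984 nt downstream 2.27-fold lower (2.11 to 2.45). Both calls depended on scaling: with median-of-ratios scaling the ratios were 0.506 and 0.542, and with TMM that of the second was 0.525, short of the 2-fold limit. The main end was 1.78-fold lower (1.68 to 1.89) and the outermost end 1.67-fold lower (1.45 to 1.94). The end 1526 nt downstream had nearly the same level at both times, 23.6 and 23.1 CPM, with a ratio of 0.977 (0.787 to 1.21); with median-of-ratios scaling and TMM the ratio was 1.20 and 1.17, again with intervals that included 1. Its interval did not overlap those of the other 4.

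The differences between ends appeared as shifts in how the gene's counts were divided. The main end held 52.6% of IRF2BP2 counts in the input (50.7 to 54.5), 47.7% at 60 min (46.0 to 49.5) and 44.3% at 30 min (43.3 to 45.3). The share fell by 8.23 points from input to 30 min (interval of the difference -10.4 to -6.09). The end 984 nt downstream did the reverse, with 25.4% in the input, 29.8% at 60 min and 35.4% at 30 min, 10.04 points above the input (8.10 to 11.9). In both, the 60 min library lay between the others. Shares within a gene are parts of the same total, so a lower share at the main end leaves more to other ends. The opposite shifts at these ends, and the place of the 60 min library in them, are therefore not separate observations. The shares of the other ends given next are parts of that total too.

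The outermost end held 12.97% of counts in the input (11.7 to 14.3), 7.10% at 30 min (6.60 to 7.64) and 8.13% at 60 min (7.22 to 9.13). Its share was lower than in input by 5.87 points at 30 min, with a difference of -7.29 to -4.53, and by 4.84 points at 60 min. From 30 to 60 min it was 1.02 points higher, with an interval that included 0 (-0.026 to 2.14). The end 1526 nt downstream held 1.69% in the input, 2.40% at 30 min and 4.49% at 60 min. From 30 to 60 min it gained 2.09 points (1.35 to 2.92). It was the only one of the 5 whose share was highest at 60 min. With 1.37 CPM in the input it passed the filter through the captured libraries. A larger share there than in the input is thus built into its selection, and its shares are a description.

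**Figure D4:**
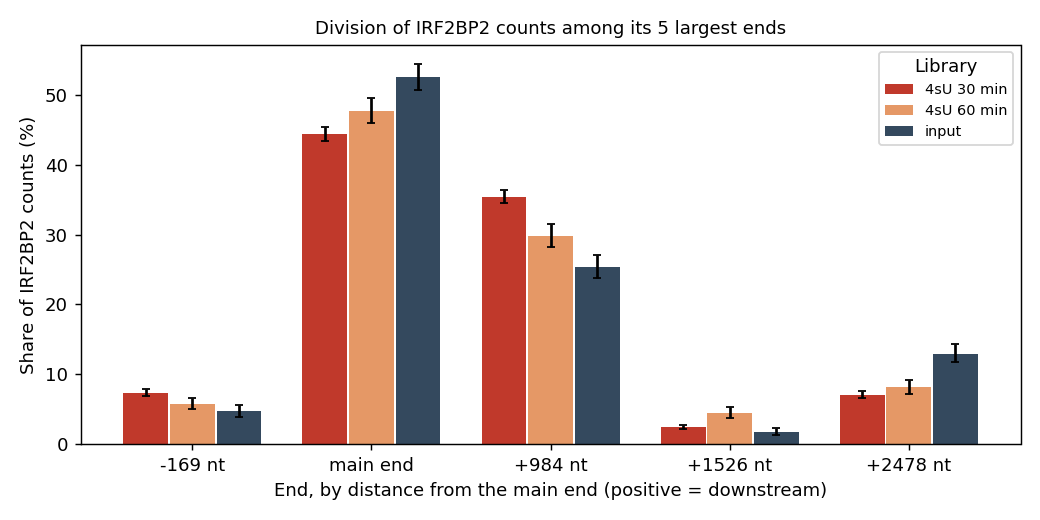
Share of IRF2BP2 counts (%) at its 5 largest ends, from upstream to downstream, with 1 bar per library and bars of error for the Wilson 95% interval. Captured RNA has less at the main end (44.3% at 30 min against 52.6% in input) and at the outermost end, 2478 nt downstream (7.10% against 12.97%), and more at the end 984 nt downstream (35.4% against 25.4%).

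The median group of ends went the opposite way at its outermost downstream end. For this comparison, ends with under 5% of a group's counts were left out, as were groups of under 100 counts, which left 7737 groups of at least 2 ends. IRF2BP2 then had 4 ends spanning 2647 nt. The share of its outermost end was 7.54% at 30 min, 8.88% at 60 min and 13.6% in the input. It was lower than in input by 6.03 points at 30 min and 4.69 points at 60 min, while the median group was 1.67 and 1.78 points higher. A change at or below that of IRF2BP2 was seen in 20.95% of groups at 30 min and 27.4% at 60 min. Among 1039 groups spanning at least 2000 nt it was seen in 19.3% and 20.98%, with medians of 3.36 and 5.01 points. The change in IRF2BP2 was thus in the lower part of the groups but not at their extreme.

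The remaining 6 ends of IRF2BP2 with at least 20 counts were small, with a mean of 1.03 to 4.26 CPM. The largest of them, at chr1:234741308, had 79 counts at 30 min, 26 at 60 min and 12 in the input. It was 22.4-fold higher than input at 30 min (12.1 to 45.1). The ends at chr1:234740810 and chr1:234740600, both between the ends 1526 and 2478 nt downstream, had 30, 13 and 3 counts and 17, 14 and 2 counts. They were 33.9-fold (10.6 to 173.8) and 28.9-fold (6.85 to 257) higher at 30 min, with intervals too wide to order them. As they had at most 3 counts in the input, they reached 20 counts through the captured libraries and had to be high there.

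At the upstream side, the end at chr1:234742826 was nearly as frequent in the input as in captured RNA by counts, with 26, 24 and 22. Per nuclear count it was 4.01-fold higher at 30 min (2.19 to 7.43) and 5.81-fold at 60 min (3.12 to 10.9). Its ratio at 30 min was the lowest of the 11 ends, but its interval overlapped those of others, such as the outermost end (5.83 to 7.58). The end at chr1:234742742 had 52, 7 and 12 counts and was 14.7-fold higher than input at 30 min (7.75 to 30.3) but 4.73-fold lower at 60 than at 30 min (2.14 to 12.4). Its ratio to input at 60 min was 3.11 (1.04 to 8.56), and that call was lost under every other scaling and with merging within 12 nt. The end at chr1:234742428 had 25 counts at 30 min, 3 at 60 min and 0 in the input, so its 30 min level was 28.3 times the level that 3 counts in the input would give, with a lower limit of 21.4-fold from its interval, and it has no ratio to input at 60 min. It too reached 20 counts through the captured libraries. From 30 to 60 min it was 5.31-fold lower (1.62 to 27.5).

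Over the 11 ends, 11 were called higher at 30 min and 10 at 60 min, where 43.1% and 30.1% of all 58672 sites with at least 20 counts were. From 30 to 60 min 4 were called lower, against 14.9% of those sites. The counts against input support nothing, since enrichment in captured RNA chose the gene. The ends with 0, 2 and 3 counts in the input also had to be high in captured RNA to pass. The count from 30 to 60 min supports nothing either, as the captured 30 min library is its denominator. The end at chr1:234742428 reached 20 counts through that library, with 25 counts there. With median-of-ratios scaling the calls at chr1:234742664 and chr1:234741511 were lost. Ratios of the 11 ends to input at 30 min ran from 4.01 to 33.9, with a median of 17.2. Those from 30 to 60 min ran from 0.188 to 1.45. Counts outside the 11 ends made up 0.989% of the gene at 30 min, 1.26% at 60 min and 0.789% in the input.

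**Figure D5:**
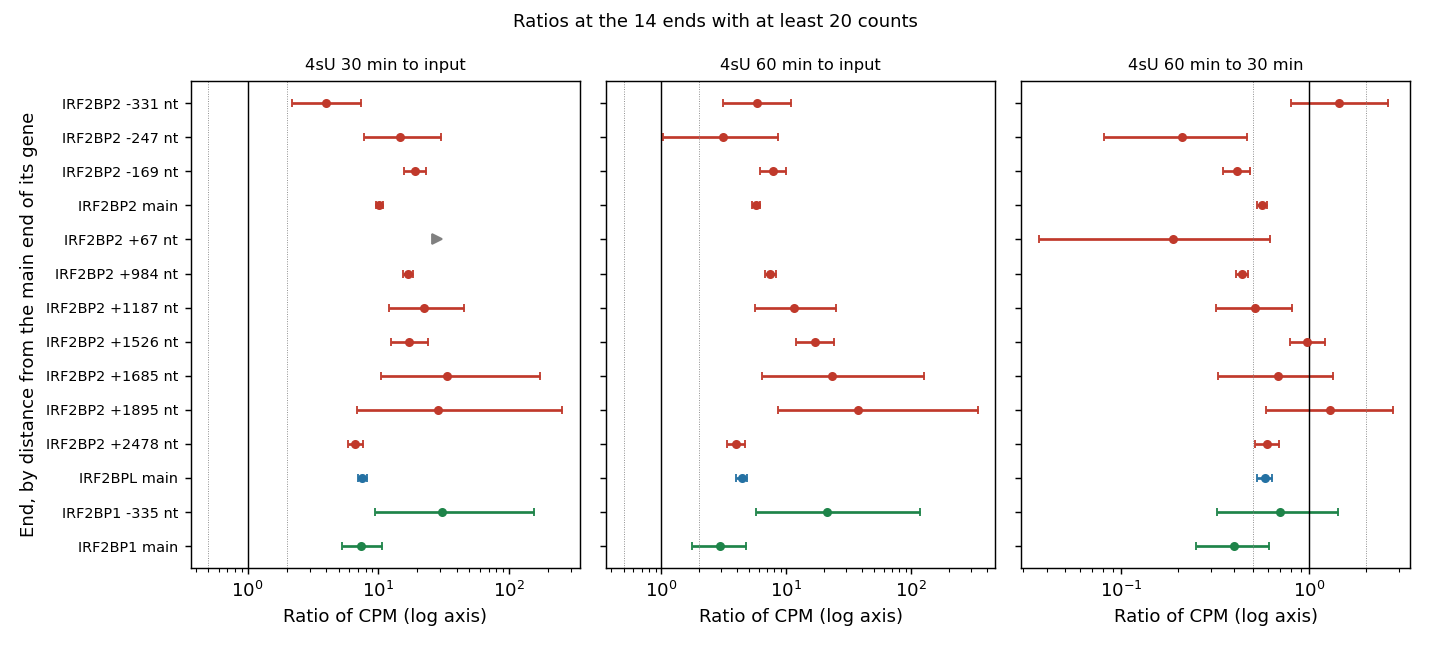
Ratio of CPM (log axis) at each of the 14 ends with at least 20 counts, in the 3 comparisons, with exact 95% intervals; ends are named by distance in nt from the main end of their gene, a triangle marks a ratio against 0 counts in the input, put at 3 counts, and dotted lines mark 2-fold. The outermost IRF2BP2 end (2478 nt) has the smallest ratio to input of the 5 large ends in both captured libraries, 6.64 and 3.97, and the end at 1526 nt is the one of them that stays near 1 from 30 to 60 min (0.977).

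IRF2BPL differed from IRF2BP2 in having a single end. At chr14:77490888 on the minus strand lay 1797 of its 1809 counts at 30 min, 665 of 672 at 60 min and 806 of 807 in the input. That is 99.3% (98.8 to 99.6), 98.96% (97.9 to 99.5) and 99.9% (99.3 to 99.98). The counts elsewhere in the window were few, at 12, 7 and 1, and their share differed from that in input by 0.539 points at 30 min, with an interval that included 0, and 0.918 points at 60 min, with an interval that did not. The end was 7.57-fold higher than input at 30 min (6.96 to 8.24) and 4.39-fold at 60 min (3.96 to 4.88). Its level went from 186 CPM at 30 min to 108 CPM at 60 min, a ratio of 0.581 (0.530 to 0.635).

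IRF2BP1 had 2 ends with at least 20 counts. The main one, at chr19:46386866 on the minus strand, had 107 counts at 30 min, 27 at 60 min and 49 in the input. It was 7.41-fold higher than input at 30 min (5.24 to 10.6) and 2.94-fold at 60 min (1.76 to 4.79), and was 2.53-fold lower at 60 than at 30 min (1.64 to 4.01). An end 335 nt upstream, at chr19:46387201, had 27, 12 and 3 counts and was 30.6-fold higher than input at 30 min (9.40 to 157) and 21.3-fold at 60 min (5.75 to 117.7). With 3 counts in the input, the size of these ratios is poorly known.

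The upstream end of IRF2BP1 held 5.36% of the gene's counts in the input (1.84 to 14.6), 19.4% at 30 min (13.7 to 26.8) and 26.7% at 60 min (15.96 to 41.0). With 3 counts in the input it reached 20 counts only through the captured libraries, so a larger share there is built into its selection, and these shares are a description. The main end held 87.5% in the input, 77.0% at 30 min and 60.0% at 60 min. Its share is largely what the upstream end leaves, so it is no separate observation.

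Among the main ends, counts were least spread over positions in IRF2BPL. Its top position took 75.6% of the end's counts in the input (72.5 to 78.4), 72.3% at 60 min (68.8 to 75.6) and 68.9% at 30 min (66.7 to 71.0). At 30 min this was 6.67 points below the input (difference -10.2 to -2.94), and at 60 min the interval of the difference included 0. The standard deviation (SD) of positions around the mean was 1.13 nt in the input, 1.31 nt at 60 min and 1.42 nt at 30 min. The mean position at 30 min lay 0.119 nt upstream of that in the input (difference -0.221 to -0.017 nt).

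The main end of IRF2BP2 showed the same order by the share of its top position. In neither gene were the 2 captured libraries told apart. The share at 60 min was above that at 30 min by 3.44 points for IRF2BPL (-0.661 to 7.36). For IRF2BP2 it was above by 1.12 points (-1.70 to 3.88). Its top position held 69.9% in the input (67.4 to 72.2), 66.0% at 60 min (63.6 to 68.4) and 64.9% at 30 min (63.5 to 66.3). The differences from input were -4.98 points at 30 min (-7.74 to -2.13) and -3.86 points at 60 min (-7.24 to -0.463). The SD of positions was 2.46 nt in the input, 2.92 nt at 60 min and 2.90 nt at 30 min. The mean position did not differ from that in input by more than its interval at either time.

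The end 984 nt downstream was much broader. Its top position held only 25.7% of counts at 30 min, 29.4% at 60 min and 24.9% in the input, and in the input the highest position was the neighbouring nucleotide, chr1:234741510. SDs were 3.43, 3.44 and 3.59 nt. The outermost end had a smaller part at its top position than the main end of IRF2BP2, with 31.0%, 36.6% and 35.1%. Its SDs of 2.20, 2.10 and 2.19 nt were nevertheless below those of that main end in each library. For IRF2BP1 the main end had SDs of 4.60, 5.84 and 3.93 nt, from few counts.

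The megabase that led to the family, chr1:234000001-235000000, held 10 sites that passed the filter of 10 CPM, and 5 of them were the large ends of IRF2BP2. The median log2 ratio of the 30 min library to input was 3.04 over the 10 sites, 4.08 over those of IRF2BP2 and 0.77 over the other 5. The high median of the megabase was thus a median over the ends of 1 gene and a mixed set. Among the others, the plus-strand site at chr1:234519790 was lower at 30 min than in input, with a ratio of 0.655 (0.610 to 0.702). The plus-strand site at chr1:234054513 was 51.2-fold higher (33.3 to 82.9). Ends of 1 gene share their source and are not separate observations of a region.

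The groups of ends most like each member were sought by distance in the pair of log2 ratios to input, among 5127 other groups with a mean CPM of at least 30 for IRF2BP2 and IRF2BPL and 5128 for IRF2BP1. The nearest to IRF2BP2 was a single end at chr14:69254382 on the minus strand, 0.058 away, with ratios of 11.8 at 30 min and 6.13 at 60 min. The next were chr2:10192941-10195057 and chr2:175202954-175203435, both on the plus strand, chr1:23883931-23884456 on the minus strand and chr11:696449 on the plus strand, up to 0.171 away. The 5 nearest lay within 0.119 of IRF2BP1 and within 0.089 of IRF2BPL. Counting error was not part of the distance. The IRF2BP1 ratios had intervals of 6.31 to 12.3 at 30 min and 2.57 to 6.17 at 60 min. These are far wider than its distances, so its nearest groups are not resolved. None of the nearest groups of any member was assigned to a gene.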

How the data were processed

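The data were 3 libraries of poly(A) 3′ ends in HEK293T cells, 1 per group. The authors deposited read counts for single genomic positions with their strand, not normalized. The submitters' processing notes name cutadapt and Bowtie; version, role and genome build were not stated. The windows are hg19, and that the positions are in that numbering rests on where the counts fall. Strands were read as those of the RNA.

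Start and end coordinates were turned into 1-based positions. Going from the highest position down, all free positions up to 24 nt away were merged into a site. Nuclear totals gave the scale (CPM). Ratios carry an exact 95% Poisson interval (Clopper-Pearson on the share of counts), shares a Wilson interval, differences of shares a Newcombe interval, ratios of ratios and mean positions a normal approximation. A count of 0 was put at 3 counts; 0 against at most 3 counts gave no ratio. The ratio and its call were tested on simulated data. Named were all 3 genes, each site of at least 20 counts, and neighbouring sites of a mean CPM of at least 10. Members and lists were chosen with earlier results of these data known. Groups, the downstream-share comparison and position spreads follow an earlier treatment of these data. Alternatives were median-of-ratios and TMM scaling (edgeR 4.0.16, R 4.3.3), totals with mitochondrial counts, merging within 12 or 50 nt, filters at 1 and 50 CPM, wider windows, and leaving out top positions or small sites. Python 3.11.15 with numpy, pandas and scipy did the rest. HEK293T markers and the partner genes were not analysed, as no annotation of the build was used.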

Additional observations from a re-analysis of the deposited data

Results flagged for a closer look

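Small numbers of counts lay just outside the windows, and in the captured libraries they were above those in the input. Within 1000 nt of the IRF2BP1 window on its strand there were 5 counts in 4sU 60 min and 3 in 4sU 30 min against 0 in the input, all downstream of the window. Within 1000 nt of the IRF2BP2 window there were 6 counts in 4sU 30 min and 3 in 4sU 60 min against 1 in the input, and 5 of the 6 lay upstream. Within 1000 nt of the IRF2BPL window there were 6 counts in 4sU 30 min, all downstream, and 1 in 4sU 60 min against 0 in the input. The first count given for each gene was marked because it lay outside the windows summed above and its ratio to the input had an interval above 1. The 3 counts at IRF2BP1 in 4sU 30 min and the 1 at IRF2BPL in 4sU 60 min, against 0, give no ratio. Such counts beside other genes are not given here, so nothing is read from these as a trait of the family.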

How the results depend on the processing

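Every ratio of a gene to input kept its direction and its call under each scaling, window and site choice run. With the other scalings the ratio at 30 min ranged from 8.93 to 9.46 for IRF2BP2, 5.61 to 5.94 for IRF2BPL and 6.21 to 6.57 for IRF2BP1. From 30 to 60 min, 3 alternatives passed the 2-fold limit where the whole-window value did not. Without the highest position of each site the ratio was 0.490 for IRF2BP1 and 0.483 for IRF2BP2. From sites of at least 20 counts alone it was 0.457 for IRF2BP1. Shares of the main ends moved by less than their intervals. Of 205 alternatives for single ends, 198 kept the call or its absence. The ratio from 30 to 60 min crossed 1 in 3 of them, without a call on either side: for the IRF2BP2 end at chr1:234740969 it went from 0.977 to 1.20 with median-of-ratios scaling and 1.17 with TMM, and for that at chr1:234740600 from 1.29 to 0.998 with merging within 50 nt.

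The counts of sites called over all transcripts moved with the filter, since fewer or more sites were tested. With a mean CPM of at least 50, sites called higher and lower were 839 and 679 at 30 min against input, 702 and 697 at 60 min, and 124 and 216 from 30 to 60 min. With at least 1 they were 19580 and 4992, 15059 and 6814, and 3260 and 7245. With mitochondrial counts in the total, 2898 sites were lower at 30 min. From 30 to 60 min median-of-ratios scaling gave 897 and 735 calls and TMM 822 and 811, against 497 and 1522 with nuclear CPM, so most calls there no longer ran toward lower.

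No paired analysis was possible because each group had 1 library, and leaving out a replicate was not possible for the same reason. Depth limits IRF2BP1 most, with 45 to 139 counts, and the small ends of IRF2BP2, with up to 22 counts in the input.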
